A study of Mus musculus with 4 samples.

Results

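The antioxidant enzymes described here were 10 genes, Sod1, Sod2, Sod3, Cat, Gpx1, Gpx3, Gpx4, Prdx1, Prdx6 and Txnrd1. They were taken by symbol from the 32285 features of each matrix, and all 10 were present in each of the 4 libraries. Expression had been measured by droplet-based 3′ single-cell RNA-seq in thymic stroma, the CD45- cells that remain after haematopoietic cells are depleted. Of the libraries, 2 came from C57BL/6 mice labelled Foxn1LacZ mock with a wild type genotype (WT), and 2 from mice labelled Foxn1LacZ mutant, in which both copies of Foxn1 carry the LacZ allele (Z/Z). All mice were 6 months old and untreated. The Foxn1 LacZ allele is hypomorphic, so the factor that drives thymic epithelial cells (TECs) is reduced in Z/Z mice and not abolished. Each library pooled 10 to 15 thymi per the protocol, so the spread between the 2 libraries of a genotype is a spread between pools and may be partly technical, and every p-value below measures only that spread.

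Superoxide dismutases turn superoxide into hydrogen peroxide, in the cytosol (Sod1), in mitochondria (Sod2) or outside the cell (Sod3). Peroxide is then removed by catalase, by glutathione peroxidases and by peroxiredoxins. The peroxiredoxin Prdx1 is kept in its working form by the thioredoxin system, which Txnrd1 recharges with NADPH. In the thymus, TECs instruct developing T cells and fibroblasts, endothelial cells and mural cells build the capsule and vessels, and low catalase in thymic stroma has been studied as a factor in thymic ageing. Gpx1, Gpx3, Gpx4 and Txnrd1 are selenoproteins in the mouse, and Gpx3 and Sod3 are the secreted members of the set.

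Promoter sequences were read from RefSeq (GRCm38.p6), which held 13 start sites for 8 of the 10 genes. The core of the antioxidant response element bound by NRF2, TGACNNNGC, was searched on both strands in the 250 bases before each start. It was found for 3 of the 8 genes, Txnrd1 (at 1 of its 3 start sites), Prdx1 and Sod1, each time as 1 match on the minus strand. A match was held by 10.2% of all 32851 start sites listed by RefSeq and by 11.5% of genes. The stretches below are shown because Txnrd1 rose in Z/Z TECs while Sod1 did not pass the test and Prdx1 was lower without passing it, and because Gpx3, which rose most widely, had no match in its 250 bases. Each is 79 bases long on the plus strand, 5′ to 3′, and lies outside annotated exons, with the motif in capitals.
Txnrd1, chr10:82859079-82859157: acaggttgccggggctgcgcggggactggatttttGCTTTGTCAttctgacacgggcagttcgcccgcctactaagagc
Prdx1, chr4:116685431-116685509: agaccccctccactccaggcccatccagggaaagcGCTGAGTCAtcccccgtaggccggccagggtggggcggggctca
Sod1, chr16:90220671-90220749: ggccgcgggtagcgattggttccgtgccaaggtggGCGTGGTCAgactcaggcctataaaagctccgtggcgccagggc
Gpx3, chr11:54902693-54902771: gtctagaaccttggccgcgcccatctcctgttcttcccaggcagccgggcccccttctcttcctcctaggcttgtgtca
The first base of the match lay 92 bases before the start site of Txnrd1, 133 before that of Prdx1 and 56 before that of Sod1. These are matches of letters in a window, and binding was not measured.

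The WT libraries held 2731 and 1192 called cells and the Z/Z libraries 5558 and 4500, and a library totalled 8468086 to 50705511 UMIs. The filters on gene number and mitochondrial share kept 55.5% and 39.8% of called WT cells, against 83.4% and 80.4% of Z/Z cells. The cells summed below were 558, 106, 1958 and 1543 TECs, 599, 190, 1213 and 739 fibroblasts and 109, 25, 696 and 673 endothelial cells, here and throughout in the order WT 1, WT 2, Z/Z 1, Z/Z 2. WT TECs were deeper, with a median of 16863.5 and 18315.5 UMIs per cell against 6743.5 and 7022 in Z/Z. The WT libraries shared 202 called barcodes, 16.9% of those of WT 2, and the Z/Z libraries shared 249, whereas at most 6 were shared across genotypes. Where a barcode was shared, leaving out its shallower copy kept all 4 member calls in TECs and 1 in each of the other lineages. Leaving out both copies cut the TECs of WT 2 from 106 to 51 cells and their UMIs from 2416695 to 396247. The TEC UMIs of Z/Z 1 fell from 20339962 to 13077498, and then 1 gene and 0 members passed in TECs. The fibroblasts of WT 2 fell from 190 to 109 cells. Whether the 2 libraries of a genotype are independent of each other was not tested. Foxn1, the altered gene, gave 90.6, 124, 51.0 and 68.6 CPM (UMIs per 1000000 of the sum) in TECs, lower in both Z/Z libraries. In mTEC2-like cells, named by Aire and Fezf2 among other markers, it gave 95.2, 170, 117 and 120 CPM, overlapping between genotypes. The mix of TEC classes differed between genotypes, as given below, and its part in the lower sum was not tested. Many TECs, above all in Z/Z, lay in clusters that matched no class, and the levels of these clusters are not given below. The largest held 17, 6, 329 and 247 cells, followed by 39, 5, 208 and 200 and by 11, 1, 177 and 163. The named classes thus do not make up the whole TEC sum.

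In TECs, Gpx3, Sod3, Txnrd1 and Prdx6 rose in Z/Z, no antioxidant enzyme fell past the threshold, and Gpx1, Prdx1 and Cat had lower values in both Z/Z libraries without passing it. In fibroblasts and in endothelial cells Gpx3 was the 1 member of 10 that passed. A gene was called at a Benjamini-Hochberg adjusted p under 0.05 in edgeR's quasi-likelihood F test, adjusted over all genes tested. The 4 of 10 members called higher in TECs stand beside a background of 22.5% of 18889 genes called, 10.4% called higher and 12.1% called lower. The 1 of 10 in fibroblasts stands beside 3.01% of 13868 genes (1.77% higher, 1.25% lower) and the 1 of 10 in endothelial cells beside 2.13% of 11417 (1.09% higher, 1.04% lower). All 10 members passed the filter on low counts in these 3 lineages. The median log2 fold change of the members was 0.32 in TECs, 0.32 in fibroblasts and 0.26 in endothelial cells, where that of all genes tested was −0.0017, 0.0050 and 0.026.

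**Figure D1:**
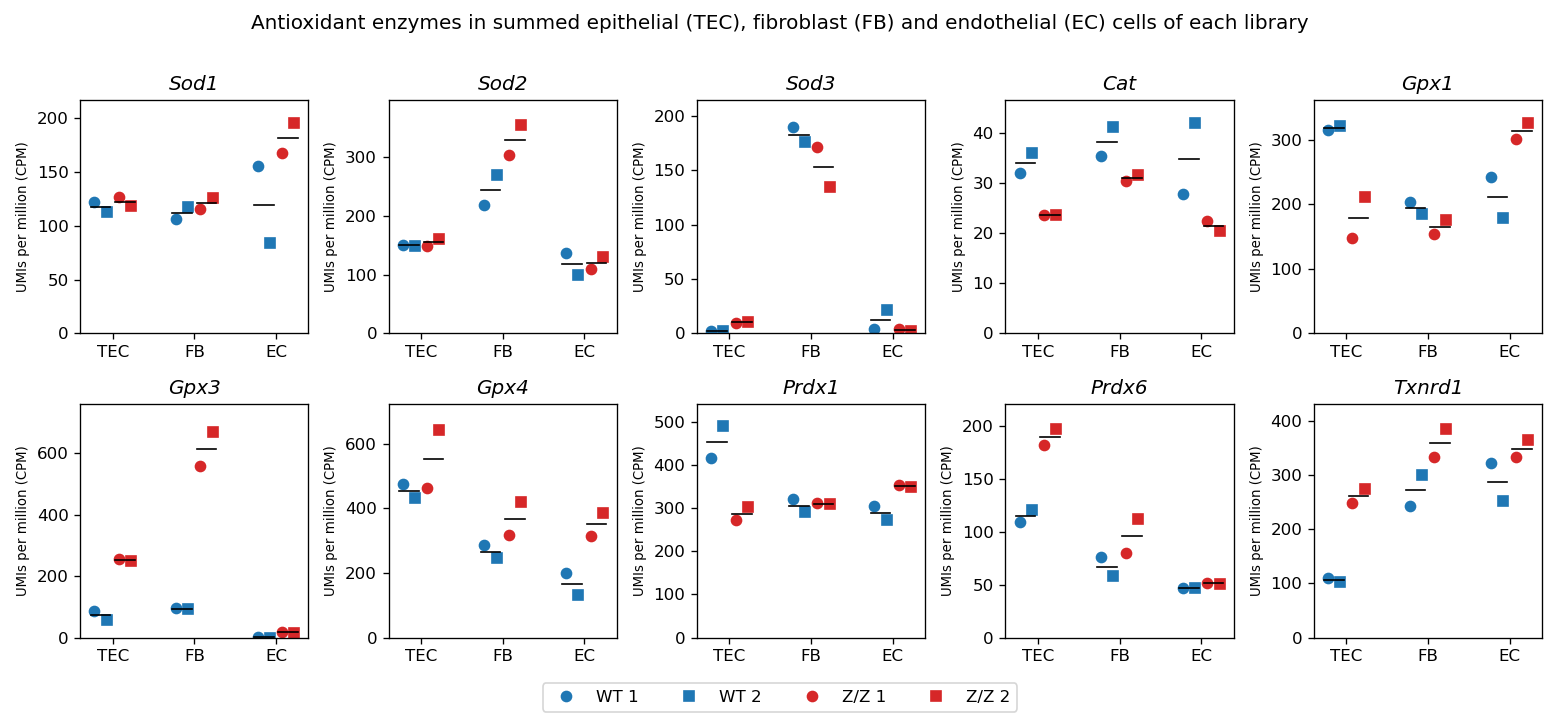
Level of each enzyme in CPM (UMIs per 1000000 of the summed cells, linear axis from 0) in TECs, fibroblasts (FB) and endothelial cells (EC), with 1 point per library and the mean of the 2 libraries as a line. Z/Z points lie well above WT points for Gpx3 in TECs and fibroblasts and for Txnrd1 in TECs, while Sod1 and Prdx1 in fibroblasts overlap between genotypes.

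Sod1 (chromosome 16, 90220754 to 90226329, plus strand, GRCm38), the cytosolic copper-zinc dismutase, had 122, 113, 127 and 118 CPM in TECs and 107, 118, 116 and 126 in fibroblasts. WT and Z/Z overlapped in both. The log2 fold change was 0.20 (SE 0.14, adjusted p = 0.318) in TECs and 0.17 (SE 0.16) in fibroblasts. Endothelial values of 156, 84.1, 168 and 195 CPM were highest in Z/Z, but the low one came from 16 UMIs in WT 2, and the log2 fold change of 0.45 (SE 0.26) did not pass. It was 0.20 without WT 2 and 1.25 without WT 1, where it passed (adjusted p = 0.0144). The mitochondrial enzyme Sod2 (chromosome 17, 13006846 to 13040063, plus strand) had 150.1, 149, 149 and 161 CPM in TECs, and 218, 269, 304 and 355 in fibroblasts, where both Z/Z libraries lay above both WT libraries. That difference of 0.50 (SE 0.18, log2) did not pass (adjusted p = 0.184). Endothelial Sod2 was 138, 99.9, 109 and 130.1 CPM, below every fibroblast value, and overlapped between genotypes.

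Sod3 (chromosome 5, 52363791 to 52371418, plus strand), the secreted dismutase that binds the extracellular matrix, was a fibroblast and mural transcript. Fibroblasts held 189, 176, 172 and 134 CPM, mural cells 99.5, 43.4, 79.4 and 99.7, and endothelial cells 4.26, 21.0, 4.25 and 2.28, the second of these from 4 UMIs. Every fibroblast value lay above every mural value. Within fibroblasts, medullary-like cells had the most Sod3, with 268, 209.6, 247 and 257 CPM, against 77.7, 84.6, 96.6 and 99.0 in capsular-like and 80.5, 129.6, 91.4 and 69.8 in intermediate-like cells. The medullary values did not overlap with those of the other classes, and the genotype difference passed in no class (log2 0.34, −0.19 and 0.087 in capsular-, intermediate- and medullary-like cells, adjusted p = 0.359, 0.802 and 0.870). The share of fibroblasts with a Sod3 UMI, after thinning each cell to 2000 UMIs, was 24.4%, 24.7%, 20.5% and 18.6%, and 60.3%, 68.4%, 57.9% and 51.4% before thinning, which left out at most 10 fibroblasts of a library. In endothelial cells the thinned shares were 0%, 4.00% (1 of 25 cells), 0.445% and 0.461%.

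TECs held little Sod3 in any library, 2.28, 2.48, 9.69 and 10.9 CPM from 28, 6, 197 and 196 UMIs. Both Z/Z libraries exceeded both WT libraries, with a log2 difference of 2.27 (SE 0.34, adjusted p = 0.0129), and the call was lost without Z/Z 1 (adjusted p = 0.0852) or without Z/Z 2 (0.0811). In Z/Z most of these UMIs lay in 1 kind of cell. Clusters called aaTEC2-like, after the second of the age-associated TEC populations the study describes, made up 28.2% and 24.7% of Z/Z TECs and held 88.3% and 92.3% of their Sod3 UMIs. With these clusters left out, the log2 fold change of Sod3 in TECs was −0.44 (SE 0.62, adjusted p = 0.648). Leaving out clusters that held most Z/Z UMIs of the gene lowers its fold by construction. The aaTEC2-like cells had 53.5 and 80.0 CPM of Sod3 in Z/Z, under the level of capsular-like fibroblasts of the same libraries. In contrast, cTEC-like, mTEC1-like, mTEC2-like and aaTEC1-like cells had at most 4.08 CPM in any library.

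The aaTEC2-like clusters were named by their markers together with ceilings of 25% of cells with an Epcam UMI and, where they lacked the TEC markers, 20% with a Pdgfra UMI, so low levels of these genes follow from the naming. Their summed CPM of 7 TEC markers was 552 and 769.7 in Z/Z and that of 6 fibroblast markers 879 and 1326. That of 7 mural markers was 776 and 829, above the TEC list in both, against 5087 and 5798 in pericyte-like cells of Z/Z. In aaTEC2-like cells Epcam had 22.1 and 41.5 CPM and Pdgfra 1.54 and 3.53 CPM. Dcn, a fibroblast proteoglycan, had 437 and 679 CPM, far under the 7265 CPM or more of every fibroblast class. In all TECs the fibroblast list summed to 135, 173, 262 and 289 CPM with 6 of 6 markers detected in each library, so it moved with Sod3 and Gpx3, and its part in their changes was not tested. RNA in empty droplets carried 53.6, 30.5, 81.9 and 57.8 CPM of Sod3 and 70.5, 32.8, 492 and 463 CPM of Gpx3. After the UMIs expected from it were subtracted from the TEC sums, at a share of 10%, Gpx3 (log2 1.77, adjusted p = 0.0120), Sod3 (adjusted p = 0.0437), Txnrd1 and Prdx6 still passed, the fold of Sod3 then resting on WT sums near 0.

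Cat (chromosome 2, 103453849 to 103485160, minus strand) encodes catalase, which splits hydrogen peroxide in peroxisomes. TECs had 32.0, 36.0, 23.7 and 23.7 CPM, lower in both Z/Z libraries than in both WT libraries. The log2 fold change of −0.37 (SE 0.18) did not pass (adjusted p = 0.193), it was −1.05 and passed (adjusted p = 0.0404) when cells were thinned to 2000 UMIs each, and it was 0.19 when mTEC2-like cells were left out. Fibroblasts had 35.3, 41.2, 30.4 and 31.5 CPM and endothelial cells 27.7, 42.0, 22.4 and 20.3, again with both Z/Z values under both WT values and log2 fold changes of −0.23 (SE 0.19) and −0.56 (SE 0.36) that did not pass. After thinning these were 0.034 and 0.066, so the sign turned in both. The endothelial value of WT 2 rests on 8 UMIs. RNA in empty droplets had 37.6, 36.4, 27.3 and 29.3 CPM of Cat, likewise lower in both Z/Z libraries, and its part in these differences was not tested beyond the subtraction at 10%, after which Cat was −0.37, −0.22 and −0.50 in TECs, fibroblasts and endothelial cells. Mural cells had 19.5, 8.68, 21.4 and 17.8 CPM, the second of these from 1 UMI.

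Gpx1 (chromosome 9, 108338903 to 108340343, plus strand), the cytosolic glutathione peroxidase, had opposite directions in TECs and endothelial cells. TECs had 316, 322, 148 and 211 CPM, endothelial cells 243, 179, 301 and 326, and fibroblasts 204, 184, 154 and 176. Z/Z was lower than WT in TECs and in fibroblasts and higher in endothelial cells, with no overlap in any of them, and none passed (log2 −0.68, SE 0.19, adjusted p = 0.0562 in TECs, 0.51 with adjusted p = 0.243 in endothelial cells). The TEC value passed in DESeq2 (adjusted p = 0.0206), without Z/Z 2 (0.0453) and after thinning (log2 −1.21), and the endothelial value without WT 1 (log2 0.95, adjusted p = 0.0217). The effect in endothelial cells exceeded that in TECs by 1.43 (SE 0.26, log2, adjusted p = 0.00336) in a test of the difference itself, in which 7.05% of 17663 genes passed. The share of 1 TEC class differed between genotypes too, and its part in the TEC value was not tested. mTEC2-like cells, the Aire-expressing medullary TECs, held 84.0% and 86.4% of the Gpx1 UMIs of WT TECs and 16.7% and 28.6% of those of Z/Z TECs. They made up 50.2% and 47.2% of WT TECs but 3.01% and 5.25% of Z/Z TECs. Within mTEC2-like cells Gpx1 was 449, 452, 385 and 515 CPM, overlapping between genotypes (log2 0.013, SE 0.21), and without these cells the TEC difference was 0.42 (adjusted p = 0.252).

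Gpx3 (chromosome 11, 54902453 to 54910377, plus strand) encodes the extracellular glutathione peroxidase found in plasma and basement membranes. Fibroblasts had 94.6, 92.3, 558 and 669.6 CPM. Both Z/Z libraries lay several-fold above both WT libraries, with a log2 difference of 2.78 (SE 0.18, adjusted p = 0.000137), and in all 14 alternatives run for fibroblasts it passed, between 2.50 and 2.91. A Gpx3 UMI was found, after thinning to 2000 UMIs, in 12.2% and 12.6% of WT fibroblasts (95% Clopper-Pearson intervals 9.69% to 15.1% and 8.26% to 18.2%) and in 41.7% and 50.2% of Z/Z fibroblasts (38.9% to 44.6% and 46.5% to 53.9%). Before thinning these shares were 30.1%, 35.8%, 64.8% and 72.0%. In endothelial cells, where the gene was near background, the thinned shares were 0.952%, 0%, 1.78% and 2.76%, at a median of 5512 to 7287 UMIs per cell against 10305 to 14675.5 in fibroblasts, and 0 of 25 cells in WT 2 allows up to 13.7% (exact interval). The 2 fibroblast groups did not overlap, and the exact permutation p of 0.333 is the smallest that 2 libraries against 2 can give. Intervals cover counting error only.

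The rise of Gpx3 was present in each fibroblast class. Capsular-like cells (Pi16, Dpp4) had 79.2, 168, 801 and 657 CPM (log2 2.71, SE 0.33, adjusted p = 0.00786). Intermediate-like cells (Inmt, Bmper, Penk) had the highest levels, 297, 287, 1054 and 967 CPM (log2 1.86, SE 0.19, adjusted p = 0.000683). Medullary-like cells (Postn, Ptn, Col15a1) had the lowest, 66.0, 44.7, 195 and 285 CPM (log2 2.10, SE 0.25, adjusted p = 0.00286). Intermediate-like cells were 76 of 599, 22 of 190, 279 of 1213 and 293 of 739 fibroblasts, a larger share in both Z/Z libraries. The part of this share in the Gpx3 difference of the fibroblast sum was not tested. In all 3 classes every Z/Z library exceeded every WT library, and Gpx3 passed in classes in which 3.13% (1.99% higher, 1.15% lower), 1.77% (0.983% higher, 0.791% lower) and 2.03% (1.14% higher, 0.886% lower) of genes were called. It also passed in each after empty-droplet UMIs were subtracted (log2 2.71, 1.85 and 1.93), while the capsular call was lost without Z/Z 1 (adjusted p = 0.101) or without Z/Z 2 (0.0531). The study also counts Gpx3 among the markers of intermediate fibroblasts, and it was left out when the classes were named. Inmt, another intermediate marker, had higher values in Z/Z within the other classes too, with 60.5, 139, 304 and 254 CPM in capsular-like and 20.4, 46.2, 139.6 and 271 in medullary-like cells, and its part in the Gpx3 difference was not tested. Different clusters held most medullary-like cells in the 2 genotypes, 1 led by Pcdh15 and Csf2rb in WT (279, 110, 19 and 13 cells) and 2 others in Z/Z. The medullary-like comparison is thus largely between different clusters under 1 name. Libraries were clustered without correction between them, and the part of library effects in this split was not tested.

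**Figure D2:**
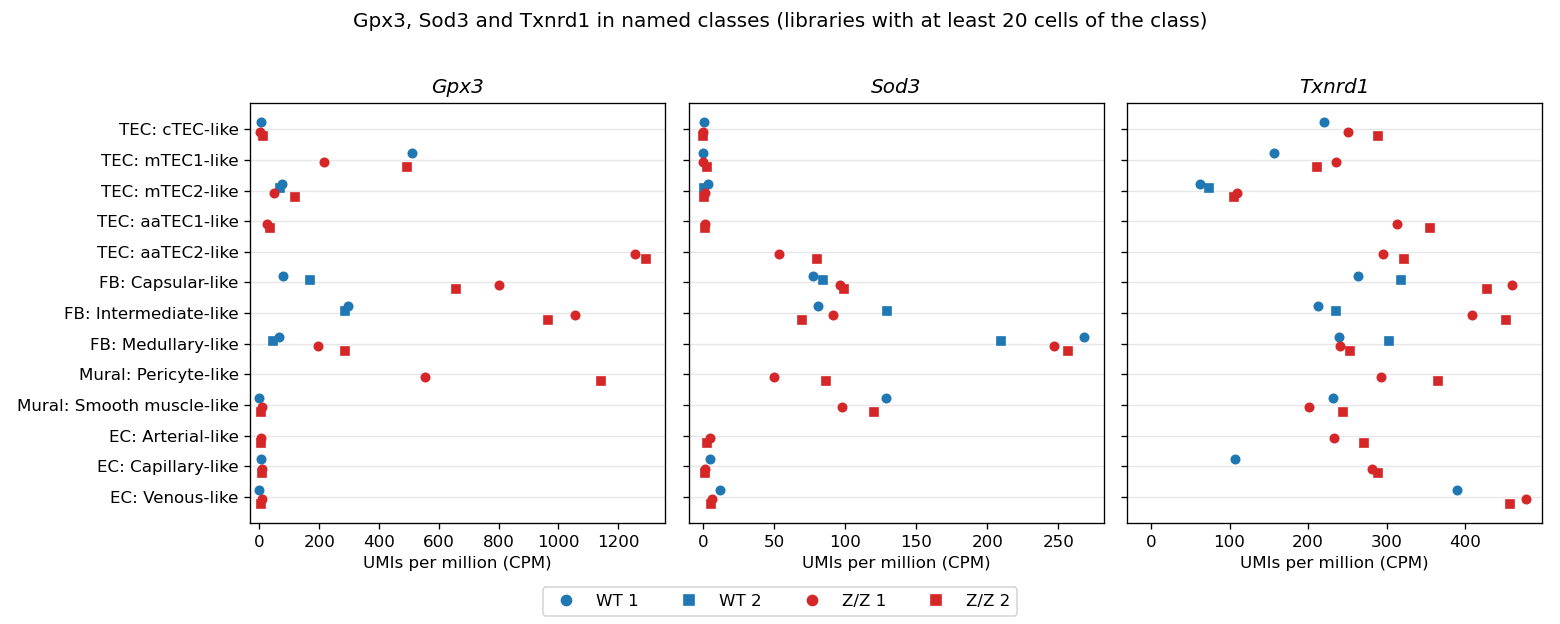
Level in CPM (linear axis) of Gpx3, Sod3 and Txnrd1 in named cell classes, 1 point per library that held at least 20 cells of the class. Gpx3 is highest in Z/Z aaTEC2-like cells and separates the genotypes in all 3 fibroblast classes, Sod3 is highest in medullary-like fibroblasts, and Txnrd1 separates them in capsular- and intermediate-like but not in medullary-like fibroblasts.

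In TECs Gpx3 had 85.6, 57.9, 255 and 250.5 CPM. The Z/Z libraries were close to each other and above both WT libraries, with a log2 difference of 1.95 (SE 0.21, adjusted p = 0.00777). In Z/Z, aaTEC2-like cells had 1255 and 1292 CPM, the highest Gpx3 of any named class with at least 20 cells. They held 78.7% and 64.7% of the TEC Gpx3 UMIs of Z/Z. WT libraries had 12 and 1 such cells, too few for a test. In WT, mTEC2-like cells held 52.1% and 71.4% of TEC Gpx3 UMIs. Without the aaTEC2-like clusters the TEC log2 fold change was 0.33 (SE 0.28, adjusted p = 0.432). These clusters held most Z/Z UMIs of Gpx3 and few WT cells, so leaving them out lowers the fold by construction. The genotypes overlapped in mTEC1-like cells, with 511, 218, 217 and 495 CPM, in mTEC2-like cells, with 75.4, 67.2, 49.8 and 119 (log2 0.27, SE 0.44), and in cTEC-like cells, with 6.80, 10.8, 1.15 and 10.8. The aaTEC1-like cells had 0, 16.3, 24.3 and 35.6 CPM, higher in Z/Z, from only 14 and 11 cells in WT. In mTEC2-like cells edgeR called 0.00795% of 12577 genes, 1 gene in all and higher in Z/Z, with 0% lower. Of the 9 members tested there 0 were called, and Gpx4 and Txnrd1 had an unadjusted p under 0.05 (0.0329 and 0.0163).

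Endothelial Gpx3 was low, 2.13, 0, 17.4 and 15.6 CPM from 2, 0, 90 and 75 UMIs. The 3 UMIs that a count of 0 allows in WT 2 correspond to 15.8 CPM, so only WT 1 lay clearly under Z/Z. The fitted log2 fold change was 3.18 (SE 0.73, adjusted p = 0.0447). Leaving out 1 library it lay between 2.91 (without WT 2) and 8.81 (without WT 1, where WT rests on the library with 0 UMIs, so that this value is no bound). The call was lost without WT 1, Z/Z 1 or Z/Z 2, without shared barcodes, when the mitochondrial limit was 10% and when the gene limit was 500 (adjusted p from 0.0516 to 0.421), and DESeq2 gave it no adjusted p. After thinning or empty-droplet subtraction the gene no longer passed the filter on low counts. An unnamed cluster of 2, 1, 24 and 23 endothelial cells, led by Ccl11, Ifitm1 and Steap4 and with Acta2 among its leading genes, held 55.6% and 58.7% of the Z/Z UMIs of Gpx3. Its 7 mural markers summed to 2251 and 1797 CPM in Z/Z, and arterial-, capillary- and venous-like cells had at most 10.1 CPM of Gpx3.

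Mural cells, pericytes and vascular smooth muscle cells together, had 16.0, 43.4, 114 and 195 CPM of Gpx3, and WT 2 held only 11 of them, so no test was made. Pericyte-like cells had 352, 177, 553 and 1143 CPM in 6, 3, 101 and 59 cells, and smooth muscle-like cells 0, 0, 8.63 and 4.94. A mesothelial cluster, found in Z/Z alone with 5 and 27 cells, had 491 and 718 CPM. The few haematopoietic cells that remained had at most 12.3 CPM.

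Gpx4 (chromosome 10, 80047166 to 80056439, plus strand), the peroxidase that reduces lipid peroxides in membranes and holds back ferroptosis, was detected in every sum. TECs had 474, 431, 463 and 643 CPM, mural cells 403, 191, 543 and 619, fibroblasts 285, 246, 317 and 418, and endothelial cells 199, 131, 314 and 386. Z/Z lay above WT without overlap in fibroblasts and endothelial cells, and the TEC values overlapped. RNA in empty droplets moved the same way, with 305, 211, 589 and 685 CPM of Gpx4, and after the subtraction at 10% the log2 difference was 0.41 in fibroblasts and 0.97 in endothelial cells. No lineage passed: the log2 fold changes were 0.43 (SE 0.19, adjusted p = 0.161) in TECs, 0.53 (SE 0.18, adjusted p = 0.166) in fibroblasts and 0.99 (SE 0.24, adjusted p = 0.0566) in endothelial cells. The endothelial value passed under 7 alternatives, among them DESeq2 (adjusted p = 0.0324) and leaving out WT 2 (0.0119), whose sum held 25 Gpx4 UMIs, and the fibroblast value passed without Z/Z 1 (log2 0.72, adjusted p = 0.0213) and with no filter on low counts (0.0257). In capillary-like cells Gpx4 was 229, 165, 397 and 495 CPM, with 5 such cells in WT 2.

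Prdx1 (chromosome 4, 116685544 to 116700822, plus strand), an abundant cytosolic peroxiredoxin, had 417, 490.3, 272 and 302 CPM in TECs. Both Z/Z libraries were lower, by 0.51 on the log2 scale (SE 0.15), and the adjusted p was 0.0660. It passed in DESeq2 (adjusted p = 0.0288) and after thinning (log2 −0.86, adjusted p = 0.00449). Fibroblasts had 321, 291, 312 and 309 CPM, overlapping between genotypes (log2 0.084, SE 0.16), and endothelial cells 305, 273, 354 and 349 (log2 0.27, SE 0.20). The endothelial effect exceeded the TEC effect by 0.98 (SE 0.24, log2, adjusted p = 0.0238).

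Prdx6 (chromosome 1, 161240112 to 161251219, minus strand) reduces phospholipid peroxides and also acts as a phospholipase. It moved the other way in TECs, with 109, 121, 183 and 197 CPM, both Z/Z libraries above both WT libraries (log2 0.87, SE 0.14, adjusted p = 0.0146). The call was lost without Z/Z 1 (adjusted p = 0.0604) or Z/Z 2 (0.0590), when cells were thinned to 2000 UMIs (log2 0.44, adjusted p = 0.192), and without mTEC2-like cells (log2 0.27, adjusted p = 0.409). Levels differed between TEC classes: aaTEC1-like cells had 215, 343, 259.9 and 251 CPM, aaTEC2-like cells 116 and 101 in Z/Z, and mTEC2-like cells 73.0, 77.3, 73.6 and 111. Within mTEC2-like cells, which were scarcer in Z/Z, the genotypes overlapped (log2 0.32, SE 0.27). The part of the class mix in the Prdx6 value of the TEC sum was not tested. Fibroblasts had 76.3, 57.9, 80.4 and 113 CPM (log2 0.57, SE 0.20, adjusted p = 0.179, and 0.81 with adjusted p = 0.0140 without Z/Z 1) and endothelial cells 46.9, 47.3, 51.4 and 51.1 (log2 0.12, SE 0.27).

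**Figure D3:**
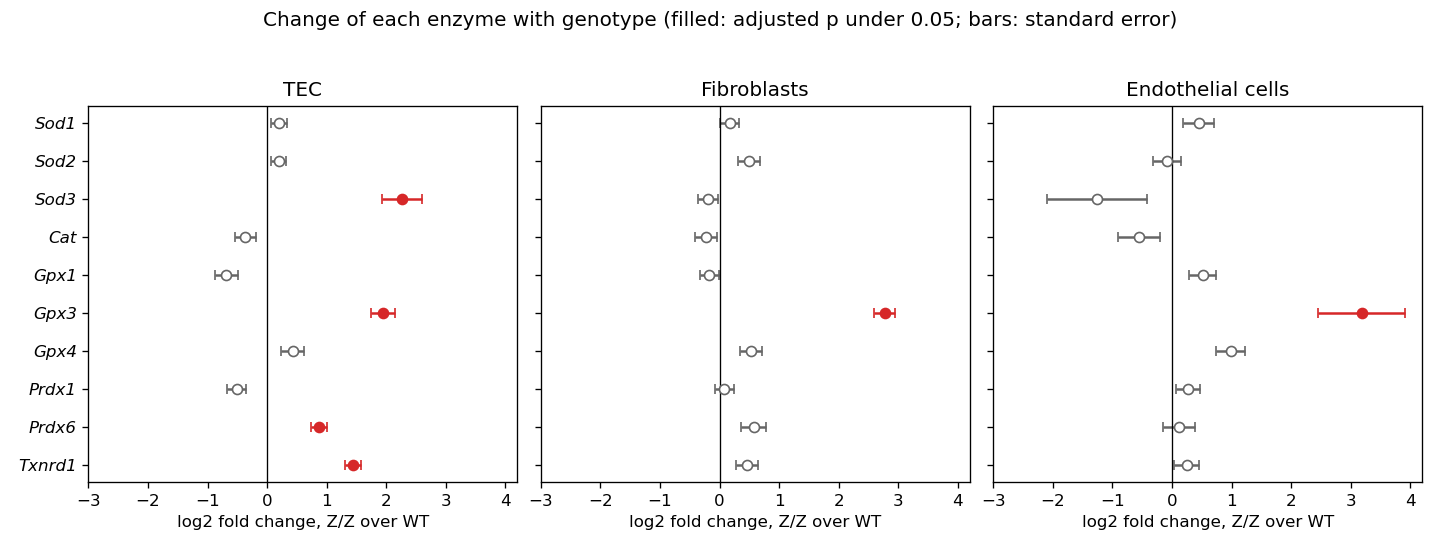
Log2 fold change of each enzyme, Z/Z over WT, from edgeR in TECs, fibroblasts and endothelial cells, with standard errors as bars and filled red points where the adjusted p was under 0.05. Sod3, Gpx3, Prdx6 and Txnrd1 are filled in TECs, and only Gpx3 is filled in fibroblasts (2.78) and in endothelial cells (3.18).

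Txnrd1 (chromosome 10, 82833951 to 82897712, plus strand), the cytosolic thioredoxin reductase, had 110.5, 103, 249 and 275 CPM in TECs. The Z/Z libraries were above both WT libraries and close to each other, with a log2 difference of 1.44 (SE 0.14, adjusted p = 0.00715). Unlike Gpx3 and Sod3, it kept its call without aaTEC2-like cells (log2 1.43, adjusted p = 0.0104). Without mTEC2-like cells, which had 62.6, 73.9, 109 and 106 CPM, it was 0.84 (SE 0.18, adjusted p = 0.0676). Within mTEC2-like cells both Z/Z values exceeded both WT values, by a log2 of 0.67 (SE 0.19) that did not pass (adjusted p = 0.274). In cTEC-like cells Txnrd1 was 221, 222, 251 and 289 CPM. TEC clusters without a class name stayed in the sums when aaTEC2-like or mTEC2-like cells were left out. Their part in the Txnrd1 difference was not tested.

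Fibroblasts had 244, 300.5, 335 and 386 CPM of Txnrd1, higher in both Z/Z libraries by 0.46 (SE 0.18, log2), which did not pass (adjusted p = 0.209). The classes were unlike each other. Intermediate-like cells had 213, 236, 408 and 452 CPM and passed (log2 1.02, SE 0.20, adjusted p = 0.0216), although not without Z/Z 2 (adjusted p = 0.0862). Capsular-like cells had 264, 318, 459 and 428 CPM (log2 0.67, SE 0.17, adjusted p = 0.0777, and 0.83 with adjusted p = 0.00493 without WT 2), and medullary-like cells 239, 304, 241 and 254, where the genotypes overlapped (log2 −0.12, SE 0.18). Whether the classes differed in effect was not tested. Endothelial cells had 322, 252, 333 and 366 CPM, the highest lineage in WT 1, with a log2 difference of 0.25 (SE 0.21).

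The effects of Z/Z were then compared between lineages in 1 fit over all 12 sums with a term for library. The mix of classes within each sum was not held fixed. Between fibroblasts and TECs 13.5% of 17663 genes differed, and 3 members did. The effect on Gpx3 was larger in fibroblasts by 0.86 (SE 0.25, adjusted p = 0.0333), that on Txnrd1 smaller, with a log2 difference of −0.94 (SE 0.26, adjusted p = 0.0231), and that on Sod3 smaller, at −2.43 (SE 0.36, adjusted p = 0.000382). Between endothelial cells and TECs 4 members differed, namely Gpx1 and Prdx1 as given above, Txnrd1 at −1.01 (SE 0.27, adjusted p = 0.0341) and Sod3 at −3.27 (SE 0.80, adjusted p = 0.0212). Between endothelial cells and fibroblasts 0.515% of genes and 0 members passed in edgeR, with Gpx1 and Gpx4 at an unadjusted p under 0.05 (0.00470 and 0.0223). Without aaTEC2-like cells the Sod3 difference between fibroblasts and TECs was 0.47 (adjusted p = 0.588). Without mTEC2-like cells Sod3 between fibroblasts and TECs was the 1 difference that passed. Of 8 alternatives, 6 kept the call of Gpx1 between endothelial cells and TECs, 6 that of Sod3 between fibroblasts and TECs, 4 that of Txnrd1 between fibroblasts and TECs, and 3 each of the other calls.

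Around the 10 enzymes, a list of 52 other redox genes was read in the same fits. In TECs 12 rose, 8 fell and 32 did not pass, with a median log2 fold change of 0.21, beside the 22.5% of all genes called. The largest changes were those of Nos1, nitric oxide synthase (3.90, SE 0.19), Cybb and Cyba, subunits of the phagocyte NADPH oxidase (−3.15, SE 0.54 and −1.74, SE 0.29), Sephs2, which makes the selenium donor for selenoproteins (−2.32, SE 0.18), the glutathione transferases Gstm1 (1.95, SE 0.18) and Gsta4 (1.64, SE 0.26), the peroxidase Gpx8 (1.68, SE 0.20) and Sesn2 (−1.44, SE 0.30), with adjusted p between 0.00587 and 0.0259. Sephs2 fell in the TEC sums in which the selenoprotein genes Gpx3 and Txnrd1 rose, sums whose mix of classes differed between genotypes. Within mTEC2-like cells 0 of the 46 redox genes tested were called, Sephs2 included, where 0.00795% of all genes were. In TECs 9 haematopoietic markers summed to 1140, 1636, 119 and 379 CPM, and the 8 genes of the dissociation stress list to 6647, 8168, 17599 and 15341 CPM. Both lists moved with genotype, as did the shares of the TEC classes. The lists also differed between classes. Cd52 of the haematopoietic list was a leading gene of mTEC2-like cells. That list gave 1755, 2584, 1367 and 2281 CPM there and 65.9, 40.8, 19.9 and 53.0 in aaTEC1-like cells. The stress list gave 3758, 4286, 4772 and 5169 CPM in mTEC2-like and 14632, 15979, 14785 and 15694 in aaTEC1-like cells. In mTEC1-like cells it gave 17654, 16960, 21117 and 20876. Nos1 led a TEC cluster, and Gstm1 was among the leading genes of aaTEC1-like cells. The part of the lists and of the class shares in these changes was not tested.

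In fibroblasts 1 of the 47 redox genes tested rose, Gsta4 (log2 2.04, SE 0.43, adjusted p = 0.0365), and 1 fell, Nox4, an NADPH oxidase that makes hydrogen peroxide (−1.34, SE 0.19, adjusted p = 0.00621). Of all genes 1.77% were called higher and 1.25% lower there. In endothelial cells 2 of 45 rose, Hmox1, haem oxygenase (2.19, SE 0.40, adjusted p = 0.0187), and Gstm1 (1.60, SE 0.25, adjusted p = 0.0109), beside 1.09% of all genes called higher. Of 46 tested, capsular-like fibroblasts had Nfe2l2 (0.82) and Slc3a2 (0.92) higher and Nox4 (−1.51) and Duox1 (−2.24) lower. Of all genes 1.99% were called higher there and 1.15% lower. Of 44 tested, intermediate-like cells had Nfe2l2 (0.83) and Gstm1 (0.90) higher and Txnip, an inhibitor of thioredoxin, lower (−1.49). The shares of all genes were 0.983% and 0.791%. Medullary-like and mTEC2-like cells had 0 calls in edgeR. There 9 of 44 and 6 of 46 redox genes had an unadjusted p under 0.05, beside 1909 of 12080 and 1835 of 12577 of all genes. The stress list gave 11890, 14573, 15519 and 9937 CPM in fibroblasts, overlapping between genotypes.

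For each enzyme, the genes most like it were sought by Pearson's r of log2(CPM + 1) over 16 sums of a lineage and library, among 4183 genes with a mean of at least 50 CPM. The sums were those of TECs, fibroblasts, endothelial, mural and mesothelial cells with at least 20 cells, so haematopoietic cells and a cluster marked by S100b were not among them. For Txnrd1 the closest was Nfe2l2 (r = 0.97), which encodes NRF2, the transcription factor that binds the element printed above, followed by Sde2 and Cd81 (0.92 each). Nfe2l2 had 118, 99.3, 259 and 247 CPM in TECs and 303, 274, 420.1 and 491 in fibroblasts, and rose in TECs (log2 1.36, SE 0.15, adjusted p = 0.00784), while within mTEC2-like cells it was −0.043 (SE 0.20). In Z/Z TECs it had more CPM than in WT TECs in both libraries, as Txnrd1 had. Of the genes listed here as NRF2 targets, Hmox1, Nqo1, Ftl1 and Fth1, none rose in TECs and Hmox1 fell (−0.71, SE 0.17, adjusted p = 0.0382). Gstm1 and Gsta4, listed apart as glutathione transferases, rose in the same sums. The mix of classes in these sums differed between genotypes, and its part in these values was not tested. The activity of NRF2 was not measured. These r values are descriptions: sums of 1 library share its cells' handling and depth, and among the 16 sums the WT TECs lie apart at the low end for both genes. The haematopoietic sums outside them had 66.1, 58.3, 162 and 111 CPM of Txnrd1, the third from 16 cells, so those TECs are not the low end of all cells in the libraries.

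**Figure D4:**
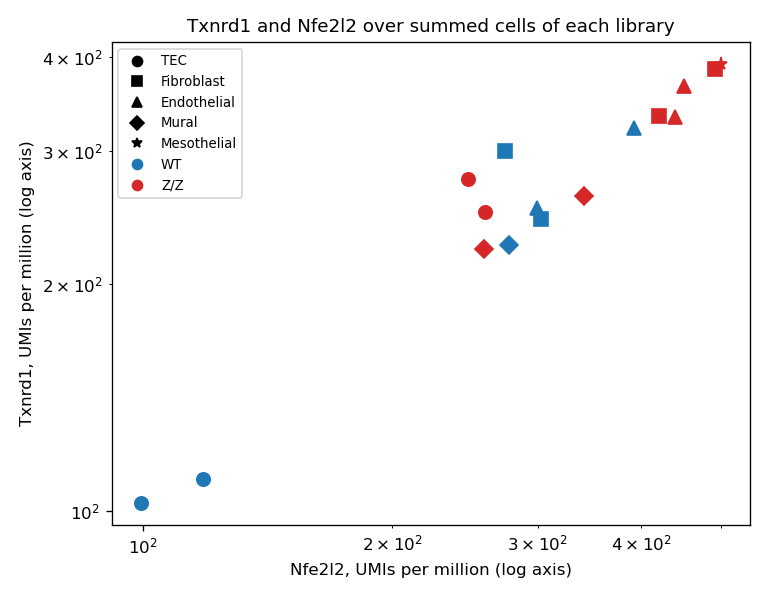
Txnrd1 against Nfe2l2 in CPM (both axes logarithmic) for 16 sums, 1 point per library and lineage (shape: TEC, fibroblast, endothelial, mural or mesothelial) with at least 20 cells, blue for WT and red for Z/Z. The 2 WT TEC sums sit at 103 and 110.5 CPM of Txnrd1 and 99.3 and 118 CPM of Nfe2l2, and the lowest of the other sums plotted has 222 CPM of Txnrd1.

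The other members had the following neighbours by the same measure. Gpx3 was most like Gm12840, Fkbp2 and Ptov1 (r = 0.96, 0.94 and 0.94), Sod3 like Fgfr1, Lhfp and Crtc3 (0.96, 0.95 and 0.94), and Gpx4 like Ndufb11, Nudc and Atp6v0c (0.97, 0.95 and 0.95). Sod2 was most like Astn2, Cyp7b1 and Ahcyl1 (0.95, 0.93 and 0.93), Cat like Ubr3, Nup153 and Tsc22d2 (0.93, 0.93 and 0.92), Prdx6 like Trmt112, Kdm5b and Lrp6 (0.93, 0.93 and 0.92), and Sod1 like Klf10, Tmem59 and Pkn2 (0.91, 0.89 and 0.88). Prdx1 (Atp6v1e1, Sirt1 and Cltc, 0.88, 0.84 and 0.83) and Gpx1 (Ssu72, Mrpl33 and Eif2s2, 0.77, 0.75 and 0.75) had the lowest of these r values.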

How the data were processed

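UMI counts per gene and barcode were deposited by the authors, who used Cell Ranger 7.01 (per the labels; builds GRCm38.p5 and mm10); they are not normalized. Sequencing saturation was deposited as a percent (65.2% to 95.2%). The kit (v2 in the labels, v3 in another method) and sex (female in the protocol, male in the characteristics) are given in conflicting ways. Cells with more than 1000 genes and under 20% mitochondrial UMIs were kept, and the 3.9% with the highest doublet scores per library removed, because Scrublet's own threshold marked few cells in 3 of the 4 libraries. Clusters (scanpy 1.11.5, Leiden, leidenalg 0.10.2) were built without the 10 enzymes and 52 redox genes and named from marker lists. All libraries were clustered together without batch correction, whereas the study corrected by sample with harmony. Names carry "-like", are rebuilt and may differ from the study's. A further 98 ribosomal and haemoglobin features were left out of the sums. UMIs were summed per library and cell type and tested with edgeR 4.0.16 in R 4.3.3 (quasi-likelihood F test, TMM, filterByExpr, two-sided, adjusted p under 0.05), where every library held at least 20 cells. TMM factors were 0.94 to 1.06 in TECs, fibroblasts and endothelial cells. CPM in the text are UMIs per 1000000 of the sum, without them. DESeq2 1.42.0 and other alternatives were also run. Of the steps, only the edgeR fit was tried on simulated counts, for TEC, fibroblast and endothelial sums. Clustering, naming, doublet removal, thinning, subtraction and the comparison between lineages were not. Shares of cells were taken after thinning to 2000 UMIs. A count of 0 was read as allowing up to 3 UMIs.

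All 10 enzymes are named in each lineage; of the redox list the called genes, at most 8 per lineage by absolute log2 fold change, and beside each enzyme the 3 most correlated genes. Fewer cells of a type and less RNA per cell can be told apart in these data only as far as clusters separate them. The members, gene lists and tests were chosen with earlier results of these data known.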

Additional observations from a re-analysis of the deposited data

Results flagged for a closer look

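The effect of Z/Z differed between lineages, in the test of the difference itself, for 7 pairs of an enzyme and a contrast. On the log2 scale, Gpx3 differed by 0.86, Sod3 by −2.43 and Txnrd1 by −0.94 between fibroblasts and TECs, and Gpx1 differed by 1.43, Sod3 by −3.27, Prdx1 by 0.98 and Txnrd1 by −1.01 between endothelial cells and TECs. Both contrasts share the TEC sums, so the values for Sod3 and Txnrd1 in one are not independent of those in the other.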

How the results depend on the processing

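The samples are numbered 1 and 2 in both genotypes, but same-numbered libraries did not deviate together (r = −0.092, −0.059 and −0.009 in TECs, fibroblasts and endothelial cells), so the numbers were not read as pairs. With the replicate block, 2156 genes passed in TECs and 365 genes and 2 members in endothelial cells (fibroblasts: 471 genes), and the members called in TECs stayed at 4. Leaving out 1 library, 818 to 3936 genes and 2 to 4 members passed in TECs, 100 to 1028 genes and 1 to 3 members in fibroblasts, 81 to 1038 genes and 0 to 3 members in endothelial cells, 0 to 3 members in capsular-like and 1 to 3 in intermediate-like fibroblasts; 1 to 3 members differed in effect between fibroblasts and TECs and 1 to 3 between endothelial cells and TECs. Endothelial Sod2 then ranged from −0.23 to 0.40 and intermediate-like Sod2 from −0.026 to 0.72. With no filter on low counts, 1292 genes and 4 members passed in fibroblasts, 742 genes and 2 members in endothelial cells and 3 members in capsular-like cells (DESeq2: 2), and endothelial Sod2 was 0.029. With cells thinned, 2832, 109 and 145 genes passed in TECs, fibroblasts and endothelial cells, and Sod1 (−0.27) and Sod2 (−0.049) in TECs and Cat in fibroblasts (0.034) and endothelial cells (0.066) changed sign. Without any shared barcode, 1 gene and 0 members passed in TECs, 197 genes in fibroblasts, and 60 genes and 0 members in endothelial cells. Endothelial cells gave 47 genes and 0 members after empty-droplet subtraction (Prdx6 −0.0079), 103 genes and 0 members with more than 500 genes per cell (Sod2 0.031), 0 members under 10% mitochondrial UMIs and 2 without doublet removal. After that subtraction 0 members differed in effect between fibroblasts and TECs and 1 between endothelial cells and TECs, where Gpx3 was −1.62. Without aaTEC2-like cells 2 members passed in TECs (Sod3 −0.44), and the Sod3 effect differed between fibroblasts and TECs by 0.47. Without mTEC2-like cells 453 genes and 1 member passed in TECs, with Cat 0.19, Gpx1 0.42, Sod1 −0.083 and Sod2 −0.034, and 1 and 0 members differed in effect from fibroblasts and endothelial cells. For single enzymes, 481 of the values kept direction and side of the threshold, 30 passed newly, 49 no longer passed and 17 changed sign; except where an alternative leaves out cells or genes by construction, the cause was not tested.

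WT 2 limits the depth: 25 endothelial and 11 mural cells, so mural cells were not tested under any setting. The alternatives of subtraction by class, the shallower barcode copy, and all those of the differences in effect were chosen after seeing the data.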
